A study of Mus musculus with 48 samples.

Results

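The transcripts of epididymal white adipose tissue, the visceral fat pad beside the epididymis, were compared between C3H/HeOuJ mice on a Western diet and mice on chow. The comparison was made of the 7 libraries titled Western diet and the 8 titled chow, 15 of the 48 libraries of the study, and the test took in 491 of the 547 endogenous genes of the panel, those whose counts averaged 10 or more across the 48 libraries. All mice were of the C3H/HeOuJ inbred strain and had free access to their diet for 6 months. The Western diet was the Teklad adjusted fat diet TD.95217. The chow was PicoDiets 5053. The other 4 groups, used here only where stated, were fed custom diets that paired sucrose or starch with palmitate or oleate. The design text gives 42% of calories as carbohydrate and 42% as fat for the Western diet and the 4 custom diets. No such figures are given for chow, and since the diets came from different makers, fat, carbohydrate and all other ingredients changed together and cannot be told apart. Age and sex are not stated, but a fat pad beside the epididymis is found only in males. The labels number the libraries of a diet without tying each to an animal, so the p-values measure only the spread between these libraries, which may be technical in part.

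White fat is made up of adipocytes, which store triglyceride and secrete hormones and complement factors, together with endothelium, fibroblast-like progenitors and resident immune cells. In obese mice macrophages gather around dying adipocytes, take up lipid and express Itgax (CD11c), Trem2 and Cd9, while resident macrophages that carry scavenger receptors such as Cd163 lie along vessels in lean tissue. B cells, T cells, mast cells and natural killer cells also lie in this depot, and the tissue moves between these states as adipocytes enlarge.

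Expression was read with NanoString's nCounter Mouse Immunology panel, in which a colour barcode is counted for each RNA molecule that binds a gene's probe pair. The gene probes gave 599327 to 691270 counts in a chow library and 424992 to 761289 in a Western diet library. Values below are scaled counts: the count divided by the library's relative level of the 14 panel reference genes. Probes that match no mouse RNA had a mean count of 5.75 to 8.88 in the 15 libraries, and a gene near that level cannot be told from background. The markers of fat that the panel holds, Cfd, Pparg and Cd36, were far above background in all 15 libraries. Fewer cells of a type and less RNA per cell cannot be told apart in whole tissue.

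Western diet replicate 2 stood apart from the other libraries. Its scaled count of Clu, a secreted chaperone made by many epithelia, was 173666, whereas the other 6 Western diet libraries reached 3378 and chow libraries lay between 1647 and 3060. The same library held 15239 counts of C4bp, a complement inhibitor, and 1140 of Tcf7, a T cell transcription factor. It was at least 4-fold above every other library in 9 genes and was the lowest of the 15 libraries in 143 genes, macrophage genes among them. The 7 epithelial genes of the panel, Clu among them, summed to 175271 scaled counts in it, of which Clu alone made up 173666. The sum was at most 5745 in the other Western diet libraries and 1874 to 3579 in chow. It therefore repeats the Clu value and does not show the epithelial genes raised together. Western diet replicate 6 was the highest library for the epithelial antimicrobial peptide gene Defb1, at 2177, and for Gata3, at 1587. Chow replicate 4 had the highest Cfd, 222161, and was the lowest of the 15 libraries in 120 genes. Western diet replicate 4 was the highest of the 15 in 186 genes. All 15 libraries were kept in the main comparison, and results that rest on Western diet replicate 2 are given with and without it.

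**Figure D1:**
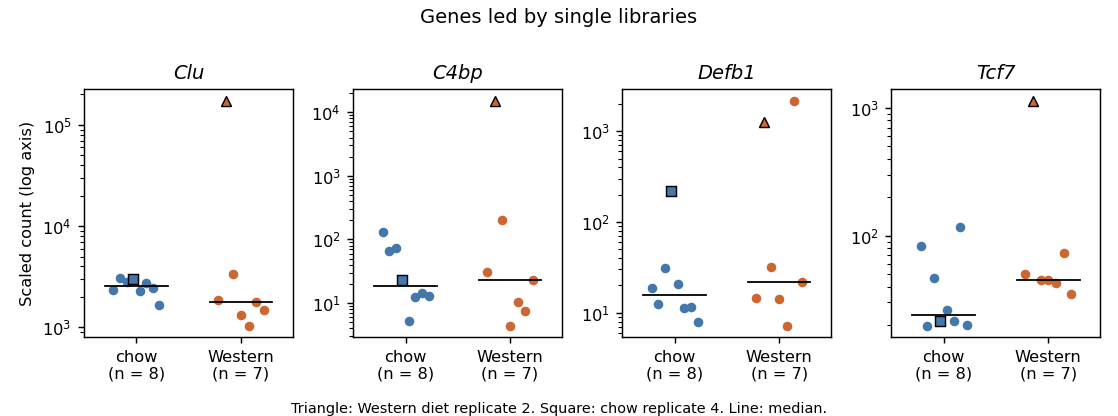
Scaled counts (log axis) of Clu, C4bp, Defb1 and Tcf7 in each library on chow (blue, n = 8) and the Western diet (orange, n = 7). Points are libraries, lines are group medians, the triangle is Western diet replicate 2 and the square is chow replicate 4; the triangle lies at 173666 for Clu while the other Western diet libraries reach 3378.

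Of the 491 genes tested, 200 (40.7%) passed at an adjusted p below 0.05, which throughout is that of edgeR's quasi-likelihood test with Benjamini-Hochberg adjustment. On the Western diet 161 genes (32.8%) were higher and 39 (7.94%) lower. The median difference of all genes was 0.25 on the log2 scale, so that single genes are to be read against a general shift upward. This shift moved with the scaling: with TMM, which sets the bulk of genes level, the median was 0.06 and 171 genes passed (34.8%), 101 higher (20.6%) and 70 lower (14.3%). The share of calls that were rises was 80.5% with the reference genes and 59.1% with TMM. Of the 14 reference genes 7 passed the same test themselves, from -0.47 for Alas1 to 0.89 for Gusb. Without Western diet replicate 2, 225 genes passed (45.8%), 185 higher (37.7%) and 40 lower (8.15%), and 183 genes were called both with and without it. Of the 200 genes, 89 kept their call under each of the 27 alternatives that tested them, 61 of them higher and 28 lower.

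In 15 genes (3.05%) every Western diet library lay above every chow library, and in 14 (2.85%) every one lay below. Without Western diet replicate 2 these were 79 genes (16.1%) and 16 genes (3.26%). Among the 15 were Abl1, Ahr, Casp2, Ifngr2, Irgm1, Mx1, Myd88, Nfkb1, Nfkbiz, Runx1, Ski, Stat2, Tgfbr1 and Tmem173. The 14 were App, Bcap31, C2, C9, Casp8, Cd163, Cd1d1, Cd209g, Cd36, Cfb, Cfd, Ifngr1, Itga6 and Map4k4. Abl1, Ahr, Casp2, Ifngr2, Irgm1, App and Map4k4 are named here for this separation, which was seen in their values.

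**Figure D2:**
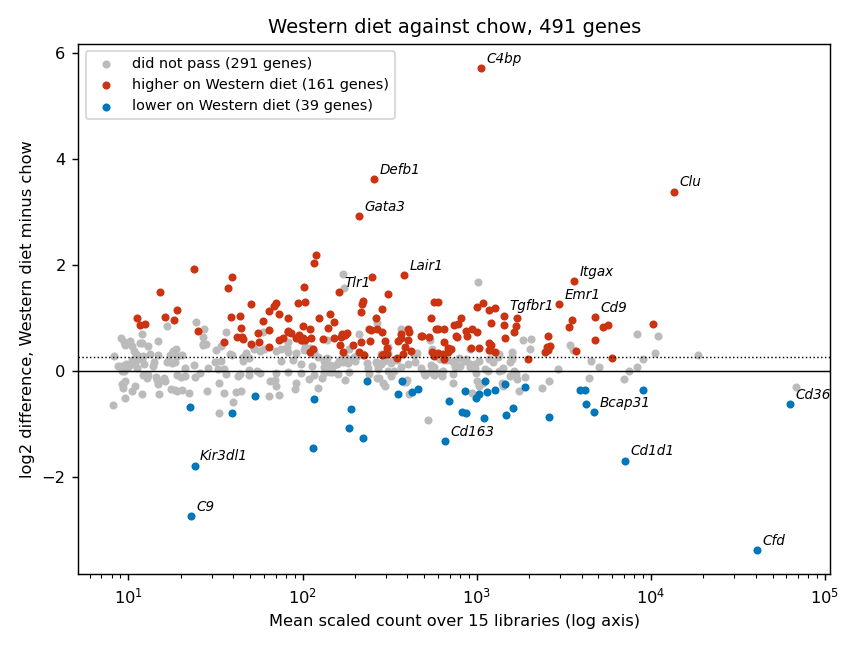
Mean scaled count over the 15 libraries (log axis) against the log2 difference, Western diet minus chow, for the 491 genes tested. Red points passed as higher (161), blue as lower (39) and grey did not pass (291); the dotted line is the median of all genes at 0.25, above which most red points lie, and Cfd and C9 are the lowest points.

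The 4 genes with the smallest p among those that kept their call under each alternative were Bcap31, Tgfbr1, Cd1d1 and C9. Bcap31 encodes an endoplasmic reticulum protein that takes part in the export of MHC class I molecules. Its scaled counts ranged from 4858 to 6619 on chow, with a median of 5976, and from 2916 to 3944 on the Western diet, with a median of 3381. The groups did not overlap, and the gene fell by 0.78 ± 0.08 (SE) on the log2 scale, 1.72-fold, with an adjusted p of 1.8e-09. The 250 bases before the transcription start of these genes, as RefSeq annotates it on GRCm38.p6, are shown. The genes were picked by their p, and for C9 the Western diet values lie at the level of the control probes. Capitals mark matches to 4 short motifs searched on both strands: the NF-kappa B motif, which is GGG and CC with any 5 bases between them, GAGGAAG for PU.1, TTGCNNCAA for C/EBP, and the interferon-stimulated response element, which is TTTC and TTTC with any 2 bases between them. The RefSeq promoters used here hold no entry for Cd1d1.
Bcap31 (chrX:73716205-73716454, minus strand): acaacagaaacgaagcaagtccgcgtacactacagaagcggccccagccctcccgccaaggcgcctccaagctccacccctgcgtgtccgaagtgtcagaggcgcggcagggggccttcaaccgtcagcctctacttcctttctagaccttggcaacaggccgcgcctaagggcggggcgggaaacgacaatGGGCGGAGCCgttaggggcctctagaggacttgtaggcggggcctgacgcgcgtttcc
Tgfbr1, first annotated start (chr4:47352972-47353221, plus strand): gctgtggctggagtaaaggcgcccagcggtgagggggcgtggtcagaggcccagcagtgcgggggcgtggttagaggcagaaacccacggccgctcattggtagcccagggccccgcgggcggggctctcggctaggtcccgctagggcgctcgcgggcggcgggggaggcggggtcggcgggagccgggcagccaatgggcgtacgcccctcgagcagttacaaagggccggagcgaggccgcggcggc
Tgfbr1, second annotated start (chr4:47385966-47386215, plus strand): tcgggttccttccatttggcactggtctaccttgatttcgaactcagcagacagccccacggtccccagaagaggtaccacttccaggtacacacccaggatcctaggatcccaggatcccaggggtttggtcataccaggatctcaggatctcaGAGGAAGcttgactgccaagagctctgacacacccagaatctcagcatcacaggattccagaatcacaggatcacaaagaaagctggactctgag
C9 (chr15:6445096-6445345, plus strand): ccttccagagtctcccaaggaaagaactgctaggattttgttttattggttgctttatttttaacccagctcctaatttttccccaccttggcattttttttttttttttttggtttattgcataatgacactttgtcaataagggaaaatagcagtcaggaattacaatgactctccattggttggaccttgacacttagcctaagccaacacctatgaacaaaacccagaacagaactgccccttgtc
The Bcap31 window held 1 match to the NF-kappa B letters, and the window of the second Tgfbr1 start held 1 to the PU.1 letters. The other windows held none. Among 32851 RefSeq promoters of the same length, 45.8% held the NF-kappa B letters, 10.6% the PU.1 letters, 1.74% the C/EBP letters and 2.98% the interferon letters, so the matches describe the sequences and mark no binding site.

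The genes of adipocytes and lipid handling were lower on the Western diet. Of the 5 on the panel 4 fell (80%, beside 7.94% of all genes) and none rose, with a median difference of -0.79 against 0.25 for all genes, and the same counts held without Western diet replicate 2 and with TMM. Cfd encodes adipsin, the serine protease that adipocytes secrete to start the alternative complement pathway. Its scaled counts were 18982 to 222161 on chow, with a median of 40102, and 4135 to 8851 on the Western diet, with a median of 7195. Every Western diet library lay below every chow library, and the difference was -3.38 ± 0.51 (SE), a 10.4-fold fall, with an adjusted p of 2.3e-06. Cfd alone took up 3.19% to 30.9% of all gene counts in a chow library and 0.591% to 1.53% in a Western diet library. Cd1d1 presents lipid antigens to natural killer T cells and is abundant in adipocytes. It ranged from 5643 to 13758 on chow and from 1926 to 4550 on the Western diet, again without overlap, and fell by 1.70 ± 0.23 on the log2 scale, 3.24-fold (adjusted p 2.9e-07).

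Pparg, the nuclear receptor that drives adipocyte differentiation, had a median of 883 on chow (633 to 1826) and 569 on the Western diet (343 to 783). The ranges overlapped, 5 of the 7 Western diet libraries lay below the lowest chow library, and the gene fell by 0.79 ± 0.16 (adjusted p 0.00018). Cd36, a fatty acid transporter found on adipocytes, endothelium and macrophages, ranged from 64350 to 90905 on chow and from 18964 to 57749 on the Western diet. All Western diet libraries lay below all chow libraries. The lowest value, 18964, was that of Western diet replicate 2, and the next lowest was 44055. Cd36 fell by 0.63 ± 0.15 (adjusted p 0.00099) with that library and by 0.49 ± 0.12 without it. Cebpb, another transcription factor of adipocyte differentiation, did not pass, with a difference of 0.12 ± 0.10 (adjusted p 0.36).

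**Figure D3:**
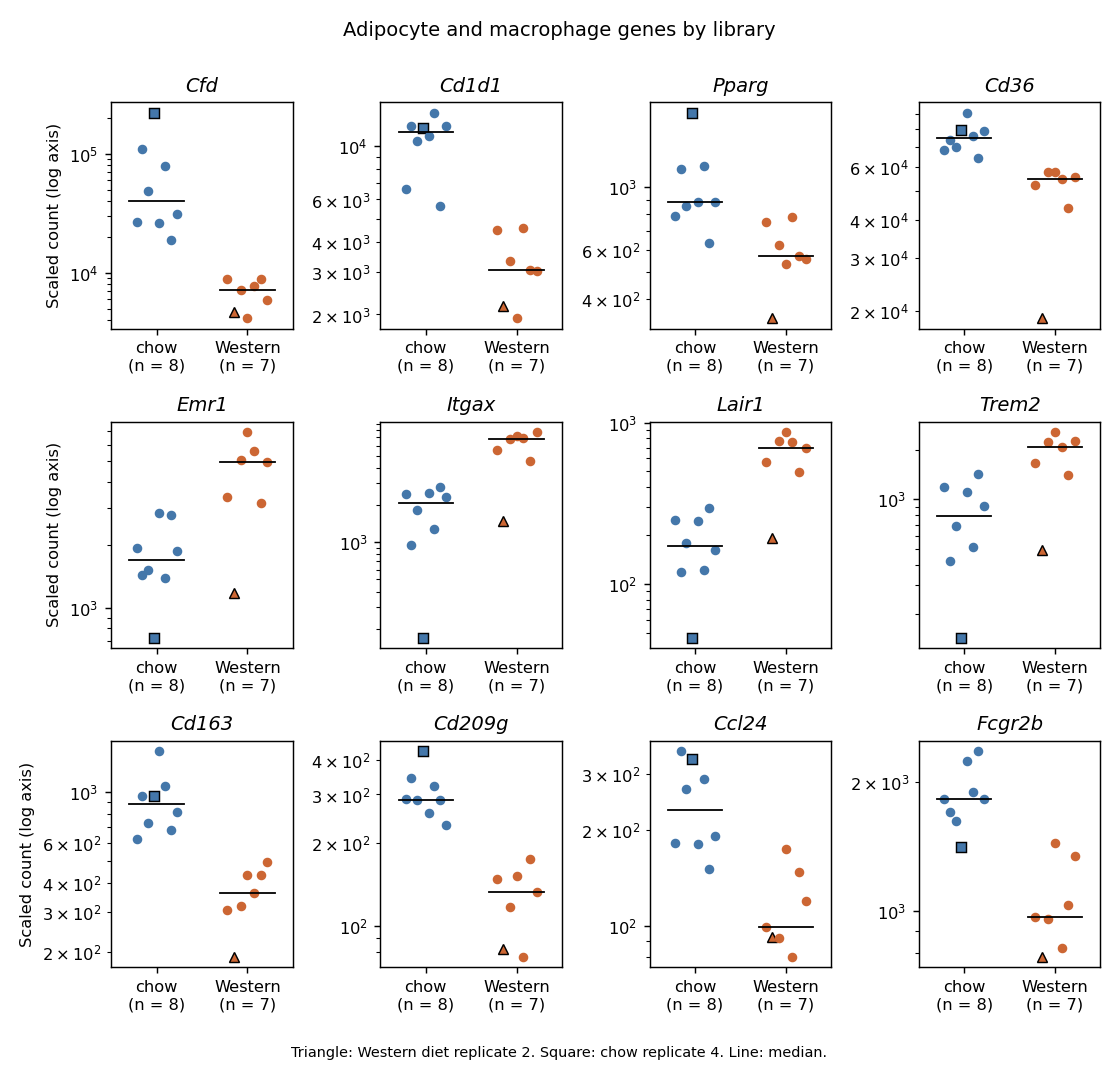
Scaled counts (log axes) of 12 genes in each library on chow (blue, n = 8) and the Western diet (orange, n = 7); lines are medians, the triangle is Western diet replicate 2 and the square is chow replicate 4. Cfd, Cd1d1, Cd36, Cd163 and Cd209g do not overlap between the diets, while for Emr1, Itgax, Lair1 and Trem2 the triangle lies among or below the chow libraries and away from the other 6 Western diet libraries.

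Macrophage genes were higher on the Western diet. Of 20 tested 12 rose (60%, beside 32.8% of all genes), 1 fell and 7 did not pass, with a median difference of 0.81, and without Western diet replicate 2 the counts were 17 and 1, when 37.7% of all genes were higher. Emr1 (now Adgre1) encodes F4/80, the classic surface marker of mouse macrophages. Its scaled counts were 721 to 2844 on chow, with a median of 1700, and 1180 to 6901 on the Western diet, with a median of 4964. The overlap came from Western diet replicate 2, at 1180, since the next lowest Western diet library was at 3167. Emr1 rose by 1.26 ± 0.27 on the log2 scale, 2.39-fold (adjusted p 0.00027), and by 1.42 ± 0.25 without replicate 2. Lair1, an inhibitory collagen receptor of leukocytes, rose most within the list. It went from 46.5 to 296 on chow to 192 to 874 on the Western diet, a difference of 1.80 ± 0.28, 3.49-fold (adjusted p 3.6e-06), and 6 of the 7 Western diet libraries lay above the highest chow library.

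Ly86 (MD-1) and Cd14, both partners of receptors for bacterial lipids, rose by 1.20 ± 0.23 and 1.00 ± 0.21. Cybb, the membrane subunit of the phagocyte NADPH oxidase, rose by 0.96 ± 0.25, and Tyrobp, the adaptor through which Trem2 signals, rose by 0.89 ± 0.28 (adjusted p 0.0099). In each of these 4 genes 6 of the 7 Western diet libraries exceeded all chow libraries, replicate 2 being the exception. Cx3cr1, the fractalkine receptor of monocytes and macrophages, ranged from 39.3 to 141 on chow and from 104 to 216 on the Western diet and rose by 1.00 ± 0.23 (adjusted p 0.00057). Its ligand Cx3cl1 rose by 1.27 ± 0.31 and had its highest value, 250, in Western diet replicate 2, without which the difference was 0.89 ± 0.29. Ccr2, the receptor by which monocytes leave the blood, was the member that fell. It ranged from 452 to 1380 on chow, with a median of 1127, and from 483 to 775 on the Western diet, with a median of 608, and fell by 0.80 ± 0.19 (adjusted p 0.00072). The lowest chow library for Ccr2 was replicate 4, at 452, and the next was at 1030.

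The markers of lipid-laden macrophages moved with Emr1. Of the 4 on the panel 3 rose (75%, beside 32.8% of all genes). The other, Cd36, which adipocytes also express, fell (25%, beside 7.94%). Itgax, the CD11c integrin, ranged from 169 to 2808 on chow, with a median of 2073, and from 1473 to 7749 on the Western diet, with a median of 6785. It rose by 1.69 ± 0.34, 3.22-fold (adjusted p 0.00016), and without replicate 2 the lowest Western diet library, at 4536, lay above the highest chow library. Trem2, a lipid receptor of these macrophages, had a median of 796 on chow (144 to 1421) and 2075 on the Western diet (492 to 2559). The ranges overlapped in Western diet replicate 2 and in 1 more library, and the rise was 1.18 ± 0.31 (adjusted p 0.0021). Cd9, a tetraspanin of the same cells, ranged from 1224 to 5440 on chow and from 5110 to 7816 on the Western diet and rose by 1.01 ± 0.18 (adjusted p 3e-05).

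The genes of resident macrophages went down while those of the general macrophage list went up. Of the 5 tested 4 fell (80%, beside 7.94% of all genes) and none rose, with a median of -1.27. Cd163, the haptoglobin-haemoglobin scavenger receptor, ranged from 625 to 1499 on chow, with a median of 884, and from 191 to 497 on the Western diet, with a median of 363. Cd209g, a C-type lectin, ranged from 232 to 430 on chow, with a median of 287, and from 76.9 to 175 on the Western diet, with a median of 132. Neither gene overlapped between the diets. Cd163 fell by 1.33 ± 0.25, 2.51-fold, and Cd209g by 1.27 ± 0.24, 2.42-fold, each with an adjusted p of 7.7e-05. Ccl24 (eotaxin-2), a chemokine for eosinophils, had a median of 230 on chow (151 to 352) and 99.4 on the Western diet (80.1 to 174) and fell by 1.08 ± 0.23 (adjusted p 0.00032). Marco, a scavenger receptor for bacteria and particles, was at 41.8 to 357 on chow and 17.1 to 165 on the Western diet, a difference of -1.46 ± 0.55 (adjusted p 0.029). The call on Marco was lost when chow replicate 1 or 7, or Western diet replicate 2, 5, 6 or 7, was left out, with differences from -1.36 to -1.19 and adjusted p from 0.052 to 0.074. Il10, also on the list, was at 3.49 to 16.7 on chow and 5.69 to 14.4 on the Western diet, near the control probes, and did not pass (0.13 ± 0.25, adjusted p 0.71).

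Within each diet the macrophage and adipocyte genes were set against each other across libraries, in a family of 8 relations with exact permutation tests. Among the 8 chow libraries Emr1 ran against Cfd, with Pearson's r of -0.94 (exact permutation p 0.00027, adjusted 0.0012) and Spearman's rho of -0.95 (adjusted p 0.0046), and r was -0.90 without the 2 libraries farthest from the median of Emr1. Emr1 ran with Itgax (r 0.92, rho 0.95, adjusted exact permutation p 0.0012 and 0.0046) and against Pparg (r -0.90, rho -0.81, adjusted exact permutation p 0.0083 and 0.058) in the same libraries. Without the 2 farthest libraries these were 0.84 and -0.91. With Cd163 r was -0.01 and rho -0.26 (exact permutation p 0.98 and 0.54), and r was -0.71 without the 2 farthest. Among the 7 Western diet libraries Emr1 ran with Itgax (r 0.97, adjusted exact permutation p 0.0083; rho 0.79, adjusted p 0.096), and r was 0.77 without the 2 farthest. The relations with Cfd (r 0.10, rho -0.29), Pparg (r 0.69, rho 0.29) and Cd163 (r 0.79, rho 0.50) did not pass the adjusted exact permutation test on the Western diet, where the adjusted p for r was 0.98, 0.15 and 0.072. Without the 2 libraries farthest from the median of Emr1, r with Cfd was -0.79, with Pparg -0.54 and with Cd163 0.55, and replicate 2 is one of the libraries farthest in Emr1. With TMM Emr1 and Itgax on the Western diet had r 0.94 and rho 0.68 (adjusted exact permutation p 0.029 and 0.22). Without the 2 farthest libraries this r was 0.39. Whether the 2 diets differ in these relations was not tested.

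Receptors for the constant part of antibodies went both ways. Of 7 tested 4 rose and 2 fell, beside 32.8% and 7.94% of all genes. Without Western diet replicate 2 the counts were 5 and 1 (71.4% and 14.3%), beside 37.7% and 8.15% of all genes. With the lymph node covariate described further on they were 1 and 2, beside 91 and 43 of the 491 genes. The activating receptors Fcgr1 and Fcgr4 rose by 1.16 ± 0.30 and 1.25 ± 0.38 (adjusted p 0.002 and 0.007), and their shared signalling chain Fcer1g by 0.85 ± 0.25 (adjusted p 0.0057). Fcgr1 ranged from 78.7 to 253 on chow and from 240 to 623 on the Western diet. Fcgr2b, the inhibitory receptor for IgG, ranged from 1412 to 2360 on chow, with a median of 1829, and from 781 to 1438 on the Western diet, with a median of 969. Its level thus lay below the lowest chow library in 6 of 7 Western diet libraries, and it fell by 0.83 ± 0.20, 1.78-fold (adjusted p 0.0012).

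Complement genes went both ways, 6 of 25 higher (24%, beside 32.8% of all genes) and 6 lower (24%, beside 7.94%), with a median of -0.19. Of the alternative pathway Cfd and factor B (Cfb) fell. Cfb ranged from 2400 to 4446 on chow and from 1358 to 2318 on the Western diet, and C2, the matching enzyme of the classical pathway, from 913 to 2000 and from 657 to 788. Neither overlapped, and Cfb fell by 0.87 ± 0.14 (adjusted p 7.9e-06) and C2 by 0.89 ± 0.19 (adjusted p 0.00033). C9, the pore-forming last component, was at 14.3 to 111 on chow, with a median of 21.3, and at 2.84 to 8.49 on the Western diet. The Western diet values lie at the level of the control probes, so the difference of -2.75 ± 0.38 (adjusted p 5e-07) sets chow against background, and chow replicates 1 and 2, at 111 and 81.1, stood above the other chow libraries. The first component of the classical pathway, which macrophages make, was higher: C1qa rose by 0.83 ± 0.23 and C1qb by 0.87 ± 0.26 (adjusted p 0.0036 and 0.0058), the protease C1ra by 0.65 ± 0.17 and its inhibitor Serping1 by 0.44 ± 0.11. These 4 genes were above the highest chow library in 6 of 7 Western diet libraries and below the lowest in replicate 2. C3, the hub of all pathways, had medians of 7475 on chow and 7739 on the Western diet and a difference of 0.00 ± 0.17. C4bp had a difference of 5.71 ± 1.28 with Western diet replicate 2 and of 0.06 ± 0.88 (adjusted p 0.96) without it. With TMM 5 complement genes were higher (20%, beside 20.6% of all genes) and 9 lower (36%, beside 14.3%).

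**Figure D4:**
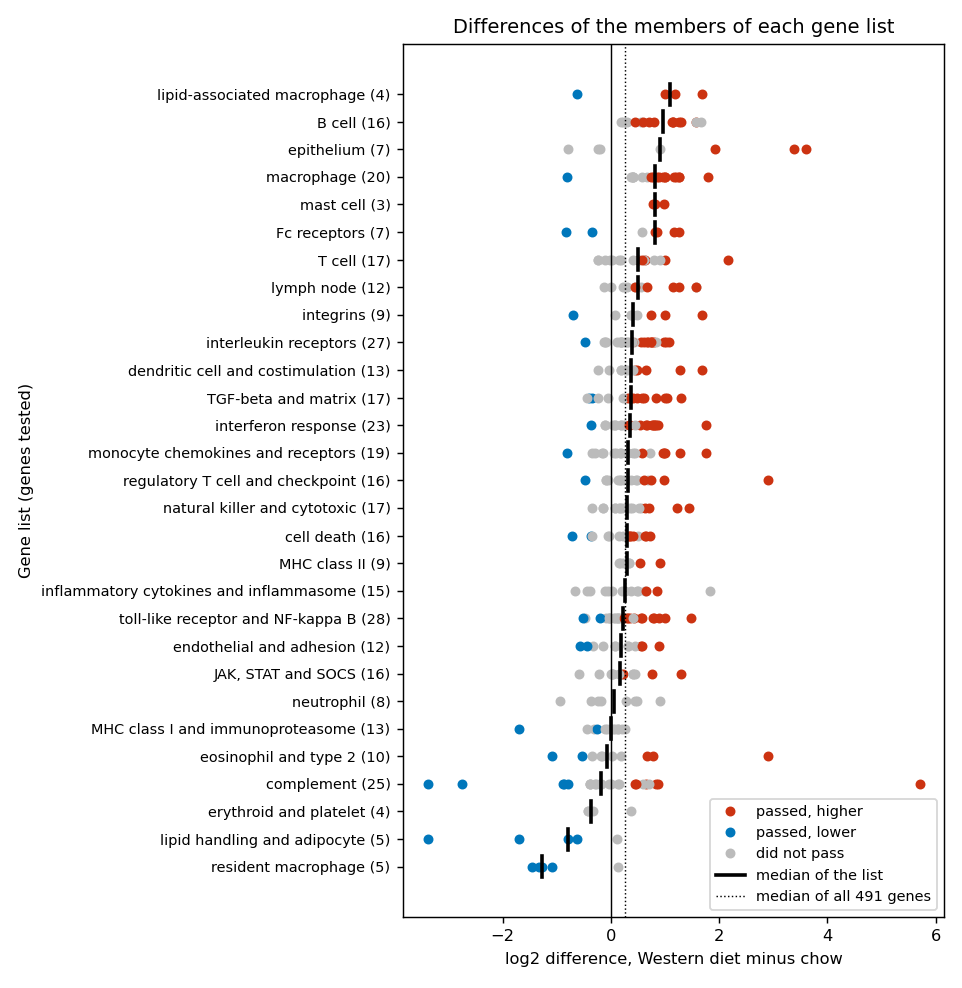
Log2 differences, Western diet minus chow, of the members of 29 gene lists, ordered by the list median; red points passed as higher, blue as lower, grey did not pass, black ticks are list medians and the dotted line is the median of all 491 genes at 0.25. The lists of resident macrophages (median -1.27) and adipocytes (-0.79) lie at the foot, and lipid-associated macrophages and B cells (0.96) at the head.

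Of 19 genes of the monocyte chemokine list 6 rose (31.6%, near the 32.8% of all genes) and 1, Ccr2, described above, fell. Ccl3 and Ccl4, chemokines that draw monocytes and T cells, rose by 0.99 ± 0.29 and 0.96 ± 0.25 (adjusted p 0.0054 and 0.0024). Ccl2, the main ligand of Ccr2, had medians of 758 on chow and 896 on the Western diet and did not pass (0.09 ± 0.25, adjusted p 0.78).

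The classic inflammatory cytokines were low and did not pass the test. Tnf ranged from 10.7 to 28.8 on chow and from 9.95 to 49.3 on the Western diet (0.63 ± 0.28, adjusted p 0.062). Il1b had medians of 22.1 and 24.7 (0.50 ± 0.50, adjusted p 0.44), and Il6, at 3.99 to 21.5 and 5.69 to 18.7, lay near the control probes (-0.44 ± 0.27, adjusted p 0.20). Of the 15 genes of the inflammatory cytokine and inflammasome list 2 rose and none fell, beside 32.8% of all genes higher, and 5 were higher at an unadjusted p below 0.05. With DESeq2 1 rose and 1 fell, beside 97 and 67 of the 491 genes. Without Western diet replicate 2, 4 rose (26.7%, beside 37.7% of all genes), and Tnf passed with a difference of 0.78 ± 0.26 (adjusted p 0.014).

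Among innate sensors 12 of the 28 listed genes of toll-like receptors and NF-kappa B signalling rose (42.9%, beside 32.8% of all genes). Of the same genes 2 fell (7.14%, beside 7.94%), and the median difference was 0.23 against 0.25 for all genes. With TMM 7 rose (25%, beside 20.6%) and 4 fell (14.3%, beside 14.3%). Tlr1, a co-receptor for bacterial lipopeptides, ranged from 37 to 151 on chow and from 111 to 362 on the Western diet and rose by 1.48 ± 0.24, 2.80-fold (adjusted p 5.4e-06). Its partner Tlr2 rose by 0.79 ± 0.19 and the RNA sensor Tlr8 by 0.89 ± 0.26. Tlr4, the endotoxin receptor, had medians of 624 and 637 and did not pass (-0.03 ± 0.14, adjusted p 0.88). Nfkbiz, an inducible nuclear co-factor of NF-kappa B, separated the diets fully. It ranged from 163 to 200 on chow and from 240 to 386 on the Western diet, with no overlap, and rose by 0.80 ± 0.13 (adjusted p 5.4e-06). Nfkb1 and the adaptor Myd88 did not overlap between the diets either, at 0.36 ± 0.08 and 0.43 ± 0.10, but the call on Myd88 was lost with TMM and with DESeq2. Tnfaip3 (A20), a brake on NF-kappa B, rose by 0.56 ± 0.13 (adjusted p 0.00091), whereas the kinase Irak2 fell by 0.52 ± 0.09 (adjusted p 3.4e-05).

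Interferon response genes were higher in 12 of 23 cases (52.2%, beside 32.8% of all genes) and lower in 1 (4.35%, beside 7.94%). With TMM 7 were higher (30.4%, beside 20.6%) and 2 lower (8.70%, beside 14.3%). Cxcl10, a T cell chemokine induced by interferon, ranged from 11 to 27.9 on chow and from 25.6 to 109 on the Western diet, a rise of 1.76 ± 0.39, 3.39-fold (adjusted p 0.00039). Its lowest chow value, 11, lay close to the control probes. Stat2, which carries the type I interferon signal, ranged from 168 to 200 on chow and from 268 to 359 on the Western diet. Mx1, an antiviral GTPase, ranged from 146 to 223 and from 231 to 297, and Tmem173 (STING), the adaptor of the DNA-sensing pathway, from 79.9 to 126 and from 148 to 217. These 3 genes did not overlap between the diets, and they rose by 0.76 ± 0.17, 0.55 ± 0.11 and 0.81 ± 0.17 (adjusted p 0.00046, 0.00021 and 0.00031). Ifi204, a DNA sensor, rose by 0.78 ± 0.19, and the type I receptor chain Ifnar1 by 0.35 ± 0.07, a call lost with TMM. Ifngr1, the ligand-binding chain for interferon gamma, ranged from 4112 to 5094 on chow and from 2763 to 3991 on the Western diet, without overlap, and fell by 0.36 ± 0.10 (adjusted p 0.0032).

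Of 16 B cell genes 10 rose (62.5%, beside 32.8% of all genes) and none fell, with a median of 0.96. Of 17 T cell genes 5 rose (29.4%) and of 17 listed natural killer and cytotoxic genes 4 rose (23.5%), both shares below that of all genes, and none of either list fell. The B cell surface gene Ms4a1 (CD20) had a median of 48.5 on chow and of 132 on the Western diet. Western diet replicate 4 was the highest library, at 385, and the Western diet range overlapped the chow range of 23.9 to 83.9. Ms4a1 rose by 1.57 ± 0.44 (adjusted p 0.0042). The antigen receptor chain Cd79b and the B cell transcription factor Pax5 rose by 1.12 ± 0.38 and 1.14 ± 0.37 but did not pass without Western diet replicate 4 (0.77 ± 0.38 and 0.71 ± 0.35, adjusted p 0.11 and 0.12). Outside replicate 7, chow libraries held at most 12.5 scaled counts of Pax5, close to the control probes. Blnk, a B cell adaptor that macrophages also express, and Cd22, a B cell lectin, rose by 1.14 ± 0.23 and 1.30 ± 0.27 (adjusted p 0.00014 and 0.0002).

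The markers of lymph node tissue, a list that shares most of its members with the B cell list, moved with these results. Of 12 tested 5 rose (41.7%, beside 32.8% of all genes) and none fell, 4 of the 5 being B cell genes, and the 13 on the panel summed to 537 to 1150 scaled counts on chow and to 660 to 2512 on the Western diet, the highest being Western diet replicate 4 and the next 1719. With the mean level of this list as a covariate, 91 of the 491 genes were higher and 43 lower. Of the lists, 4 of the 16 B cell, 1 of the 17 T cell and 7 of the 20 macrophage genes rose, and none of the 12 lymph node genes passed. The covariate is made of the list's own genes in the same libraries. For members of this list and of the overlapping B cell list, the loss of calls was therefore in part set in advance and shows nothing about its source. Among the genes named here, C1qa, C1qb, C1ra, Serping1, Fcgr4, Fcer1g, Tyrobp, Ccl3, Tlr8, Ms4a1, Cd79b, Pax5, Cd3d, Cd8b1, Lck, Klrk1 and Fcer1a did not pass with this covariate. Of the chemokines that define lymph node stroma, Cxcl13 was at 14 to 191 on chow and 79.3 to 795 on the Western diet (1.57 ± 0.86, adjusted p 0.14), Ccl19 was at 26 to 87.7 and 38.4 to 63.5 (0.01 ± 0.30, adjusted p 0.99), and neither passed. Both are named although the rule did not select them. The part of lymph node tissue or of lymphocyte clusters in these results was not tested further.

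The T cell receptor chain Cd3d ranged from 26 to 45.4 on chow and from 34.1 to 77.1 on the Western diet and rose by 0.64 ± 0.23 (adjusted p 0.026), a call lost with TMM and without chow replicate 2 or Western diet replicate 4 (0.58 ± 0.24 and 0.54 ± 0.24, adjusted p 0.053 and 0.077). Cd3e did not pass at 0.80 ± 0.35 (adjusted p 0.062), nor did Cd8a, at 4.12 to 19.3 on the Western diet, or the regulatory T cell factor Foxp3, at 7.64 to 20.9, both close to the control probes. Cd8b1 rose by 1.00 ± 0.35 from a median of 9.45 to 23.1, but not without Western diet replicate 1 (0.87 ± 0.37, adjusted p 0.055). Its chow median lies close to the control probes too. Lck, the kinase of the T cell receptor, rose by 0.57 ± 0.18 (adjusted p 0.011). Tcf7 had a difference of 2.17 ± 0.60 with Western diet replicate 2 and of 0.12 ± 0.44 (adjusted p 0.85) without it. Il2ra, the high-affinity chain of the IL-2 receptor, was the only member of the regulatory T cell and checkpoint list that fell, from 48.9 to 88.7 on chow to 37.6 to 52.6 on the Western diet (-0.47 ± 0.15, adjusted p 0.011). Gata3, a factor of type 2 lymphocytes that epithelia also express, ranged from 22.9 to 197 on chow and from 42.4 to 1587 on the Western diet. Its rise of 2.91 ± 0.92 (adjusted p 0.01) was not called without Western diet replicate 6 (1.89 ± 0.89, adjusted p 0.087).

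Among natural killer genes Slamf7, a receptor that macrophages and plasma cells carry as well, rose by 1.44 ± 0.28, 2.71-fold (adjusted p 8.1e-05), from 45.3 to 288 on chow to 155 to 663 on the Western diet. Klra8 rose by 1.21 ± 0.25 (adjusted p 0.00018) and the activating receptor Klrk1 by 0.71 ± 0.23 (adjusted p 0.011). Probes of the closely related Klra genes may share RNAs. Gzma, the granzyme of killer cells, had medians of 27.5 and 35 and did not pass (0.40 ± 0.28, adjusted p 0.26). Kir3dl1, a killer cell receptor that is not on the list counted above, fell by 1.79 ± 0.38 (adjusted p 0.00023), from 8.52 to 106 on chow to 8.24 to 11.9 on the Western diet, where all libraries lay near the control probes.

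The 3 mast cell genes of the panel rose (100%, beside 32.8% of all genes). With the lymph node covariate 2 of them passed, when 91 of the 491 genes were higher. Kit, the receptor for stem cell factor, rose by 0.77 ± 0.22, Fcer1a, the IgE receptor, by 0.81 ± 0.23, and Il1rl1 (ST2), the IL-33 receptor, by 0.99 ± 0.20. Il1rl1 ranged from 127 to 216 on chow and from 319 to 483 in 6 Western diet libraries, with replicate 2 at 93.8. None of these 3 genes marks mast cells alone. None of 8 neutrophil genes passed in edgeR or in DESeq2, with 0 at an unadjusted p below 0.05 in edgeR and 1 in DESeq2. Of 9 genes of MHC class II 2 rose (22.2%, beside 32.8% of all genes), H2-DMb2 among them (0.92 ± 0.27, adjusted p 0.0054), which did not pass when Western diet replicate 2 and chow replicate 4 were left out together (0.57 ± 0.26, adjusted p 0.075). The peptide-presenting chain H2-Ab1 did not pass (0.29 ± 0.24, adjusted p 0.34). Cd83, a marker of activated dendritic cells and B cells, rose from 320 to 857 on chow to 427 to 2261 on the Western diet, by 1.29 ± 0.23 (adjusted p 4.3e-05).

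The genes of transforming growth factor beta, the cytokine of fibrosis and matrix, were higher in 11 of 17 cases (64.7%, beside 32.8% of all genes) and lower in 2 (11.8%, beside 7.94%). With TMM 5 were higher (29.4%, beside 20.6%) and 4 lower (23.5%, beside 14.3%). Tgfbr1, its signalling receptor chain, ranged from 664 to 1299 on chow, with a median of 988, and from 1642 to 2300 on the Western diet, with a median of 2006. The groups did not overlap and the rise was 1.04 ± 0.13, 2.06-fold (adjusted p 1.7e-07). The ligand Tgfb1 rose by 0.61 ± 0.16 (adjusted p 0.003). Plau, the urokinase that activates plasmin at the cell surface, rose by 1.00 ± 0.14 (adjusted p 6.7e-07), from 951 to 1398 on chow to 1329 to 3121 on the Western diet. Runx1, a transcription factor of blood cells and fibroblasts, ranged from 155 to 510 and from 605 to 1025, without overlap, and rose by 1.30 ± 0.19, 2.47-fold (adjusted p 2e-06). Smad3, which carries the signal to the nucleus, and Ski, which holds it back, rose by 0.32 ± 0.07 and 0.41 ± 0.08, and both calls were lost with TMM. Tgfbi, a matrix protein, fell by 0.40 ± 0.11 (adjusted p 0.0036).

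Of 12 endothelial and adhesion genes 3 rose (25%, beside 32.8% of all genes) and 2 fell (16.7%, beside 7.94%). With TMM 2 rose (16.7%, beside 20.6%) and 3 fell (25%, beside 14.3%). Cdh5 (VE-cadherin), the junction protein of endothelium, ranged from 578 to 1119 on chow and from 408 to 668 on the Western diet and fell by 0.56 ± 0.17 (adjusted p 0.0059), but not when Western diet replicates 2 and 6 and chow replicate 4 were left out together (-0.41 ± 0.18, adjusted p 0.066). Cd34, carried by endothelium and adipocyte progenitors, rose by 0.58 ± 0.12 (adjusted p 0.00024), and Icam1, the adhesion molecule for leukocytes, by 0.57 ± 0.15 (adjusted p 0.0022). Among integrins Itga4, used by leukocytes to leave vessels, rose by 1.00 ± 0.23, whereas Itga6, a laminin receptor of endothelium and other basement membrane cells, ranged from 1498 to 2316 on chow and from 915 to 1460 on the Western diet and fell by 0.70 ± 0.15 (adjusted p 0.00036).

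Interleukin receptors were higher in 12 of 27 cases (44.4%, beside 32.8% of all genes) and lower in 1 (3.70%, beside 7.94%). With TMM 8 were higher (29.6%, beside 20.6%) and 2 lower (7.41%, beside 14.3%). Receptors of the IL-1 family were among them: Il1rl2, the IL-36 receptor, rose by 0.69 ± 0.12 (adjusted p 3.9e-05) and the shared chain Il1rap by 0.61 ± 0.12 (adjusted p 0.00018). Il13ra1, a receptor chain for IL-4 and IL-13, rose by 0.66 ± 0.11 (adjusted p 1.9e-05). Ptpn6 (SHP-1), the phosphatase of inhibitory receptors in leukocytes, ranged from 153 to 572 on chow and from 459 to 1363 on the Western diet and rose by 1.30 ± 0.22 (adjusted p 1.6e-05). Gpr183, an oxysterol receptor that positions immune cells, rose by 1.28 ± 0.21 and Tnfrsf11a (RANK), the receptor of osteoclast precursors, by 1.10 ± 0.20. Of 16 cell death genes 8 rose (50%, beside 32.8% of all genes) and 2 fell (12.5%, beside 7.94%). With TMM, however, 2 rose (12.5%, beside 20.6%) and 3 fell (18.8%, beside 14.3%). The 2 that fell were Casp8, the initiator caspase of death receptors, which ranged from 868 to 1022 on chow and from 611 to 819 on the Western diet (-0.37 ± 0.08, adjusted p 0.00036), and the death receptor Fas (-0.71 ± 0.17, adjusted p 0.0012). Tfrc, the transferrin receptor, did not pass at -0.42 ± 0.21 (adjusted p 0.11), and none of 4 erythroid and platelet genes did in edgeR with all libraries, with 0 at an unadjusted p below 0.05. In edgeR with TMM, with the lymph node covariate and without Western diet replicate 2, and in DESeq2, 1 of the 4 fell.

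Epithelial genes rested on single libraries. Of 7 tested 3 rose (42.9%, beside 32.8% of all genes), Clu, Defb1 and Defb14, and none passed in edgeR without Western diet replicate 2, with 1 at an unadjusted p below 0.05, while DESeq2 with all libraries called 1. Clu had a difference of 3.38 ± 0.73 with that library and of -0.49 ± 0.36 (adjusted p 0.27) without it, and Defb14, at 222 in it and at most 11.5 in the other Western diet libraries, 1.92 ± 0.74 and -0.05 ± 0.69. Defb1 passed at 3.61 ± 1.36 (adjusted p 0.03), and not without Western diet replicate 2 or 6 (3.20 ± 1.37 and 2.43 ± 1.33) or chow replicate 2, 6 or 8 (3.45 to 3.47, adjusted p 0.053 to 0.054). Ncam1, a neural and killer cell adhesion molecule, was at 1045 in replicate 2, where the other Western diet libraries reached 139, and its difference went from 2.04 ± 0.70 to 0.21 ± 0.61. Ptpn22, a leukocyte phosphatase, was at 1007 in the same library and rose by 1.31 ± 0.25 with it and by 0.71 ± 0.18 (adjusted p 0.0011) without it.

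The spread between libraries also differed with that library. The standard deviation of the log2 scaled count was smaller on the Western diet than on chow in 171 of 491 genes with all 7 libraries, and in 326 of 491 (66.4%) without replicate 2. The median standard deviation was 0.42 on the Western diet with all libraries, 0.27 without replicate 2 and 0.33 on chow.

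The Western diet was then set against the custom diet of sucrose and palmitate (n = 8), which has the same stated shares of fat and carbohydrate. Of 491 genes 30 (6.11%) passed, 13 higher (2.65%) and 17 lower (3.46%), and 58 passed (11.8%) without Western diet replicate 2, 39 higher (7.94%) and 19 lower (3.87%). The count was 15 and 17 without sucrose/palmitate replicate 4 or 8, and 18, 17 and 18 without Western diet replicate 1, 3 or 7. The adipocyte genes Cfd and Cd1d1 were lower on the Western diet than on sucrose/palmitate as well, by -2.13 ± 0.48 and -0.97 ± 0.22 (adjusted p 0.006 for both). Cfd ranged from 9299 to 74784 on sucrose/palmitate, above all Western diet libraries. Cd163, at 502 to 881 on sucrose/palmitate, and Cd209g, at 145 to 414, were lower on the Western diet by -0.81 ± 0.25 and -1.01 ± 0.24 (adjusted p 0.046 and 0.0076), and Cd163 did not pass without Western diet replicate 2 (-0.70 ± 0.25, adjusted p 0.057). Ccr2 was lower by -0.75 ± 0.19, Ccl24 by -0.88 ± 0.23 and Fcgr2b by -0.75 ± 0.20 (adjusted p 0.011, 0.018 and 0.02). The macrophage genes Emr1 (0.55 ± 0.26), Itgax (0.53 ± 0.34) and Trem2 (0.48 ± 0.30) did not pass, with adjusted p of 0.22, 0.40 and 0.40, and without replicate 2 Emr1 passed at 0.71 ± 0.24 (adjusted p 0.049).

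The smallest p-values of this comparison were those of Smad3, Il2ra and Bcap31. Smad3 ranged from 579 to 862 on the Western diet and from 423 to 566 on sucrose/palmitate, without overlap (0.45 ± 0.07, adjusted p 6.4e-05). Il2ra ranged from 37.6 to 52.6 and from 56.5 to 118, also without overlap (-0.92 ± 0.15, adjusted p 6.4e-05). Bcap31 was lower than on sucrose/palmitate, where it ranged from 4148 to 5503, by -0.44 ± 0.08 (adjusted p 0.00054). Runx1 was higher by 0.74 ± 0.19 and Tnfsf13b (BAFF), the survival factor of B cells, by 0.61 ± 0.17 (adjusted p 0.015 and 0.024). Stat4 passed as lower (-1.67 ± 0.49), but its median was 59.8 on the Western diet and 47.8 on sucrose/palmitate, with 1 sucrose/palmitate library at 1191. Clu and C4bp passed through Western diet replicate 2 alone, and without it their differences were -0.87 ± 0.36 and -1.20 ± 0.88, neither passing.

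Against the equal-weight mean of the 4 custom diets 12 of 491 genes (2.44%) passed, 9 higher (1.83%) and 3 lower (0.611%), and 35 passed (7.13%) without Western diet replicate 2, 30 higher (6.11%) and 5 lower (1.02%). Of the 9 higher genes C4bp, Clu and Tcf7 did not pass without that library. The others were Smad3 (0.40 ± 0.06, adjusted p 1.3e-06), Ski (0.40 ± 0.06), Nfkbiz (0.45 ± 0.10), Cd34 (0.38 ± 0.09), Stat3 (0.23 ± 0.06) and Serping1 (0.32 ± 0.09). Smad3 had a median of 710 on the Western diet and of 524, 564, 528 and 569 on sucrose/palmitate, starch/palmitate, sucrose/oleate and starch/oleate. The 3 lower genes were Fcgr2b (-0.97 ± 0.17, adjusted p 0.00013), Ccr2 (-0.65 ± 0.16, adjusted p 0.0099) and Il2ra (-0.46 ± 0.13, adjusted p 0.031). Fcgr2b had a median of 969 on the Western diet and of 1789, 1690, 1285 and 3318 on the 4 custom diets in the same order. For Il2ra the medians were 43.2 on the Western diet and 78.4, 54.0, 59.6 and 45.1, so that starch/oleate lay near the Western diet. Several genes that separated the Western diet from chow did not pass here. Emr1 (0.19 ± 0.21), Itgax (0.18 ± 0.27), Cd163 (-0.42 ± 0.20), Tgfbr1 (0.00 ± 0.11) and Plau (0.06 ± 0.11) are examples, which does not show that the diets act alike. The 3 comparisons share the Western diet libraries.

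**Figure D5:**
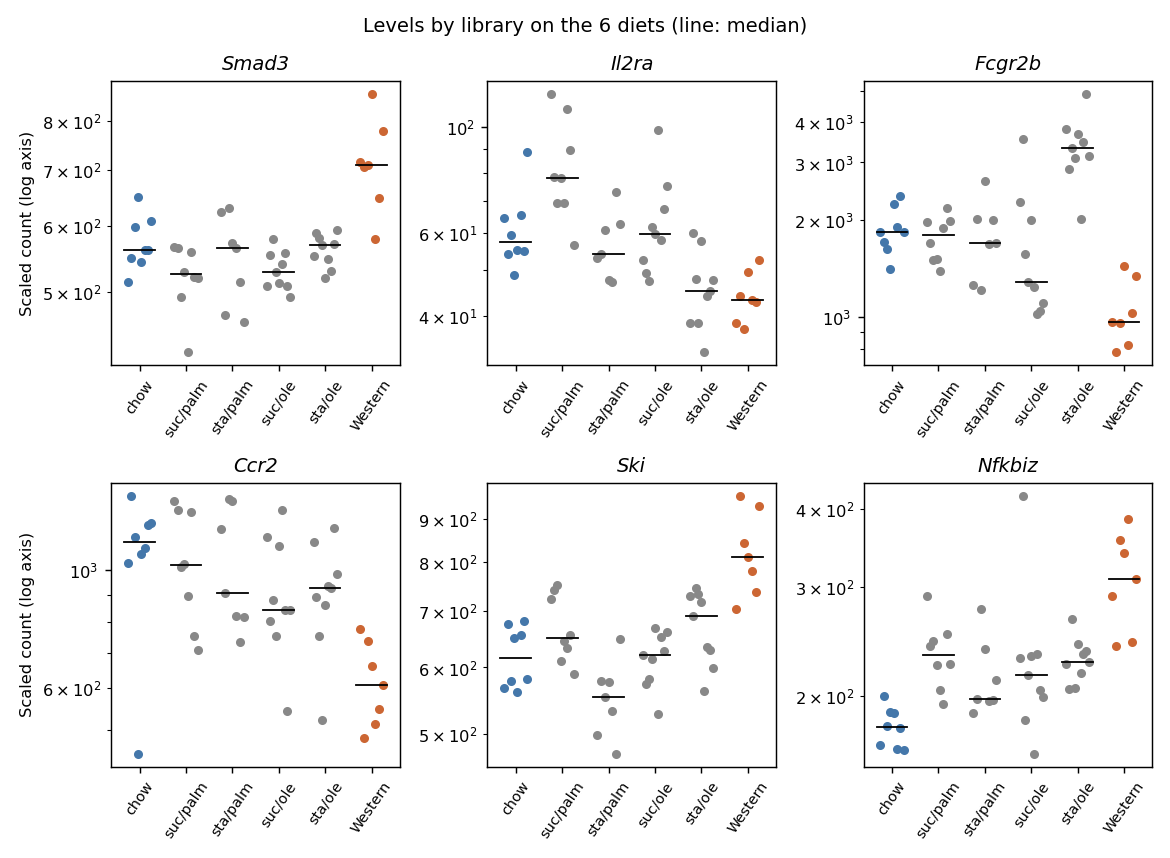
Scaled counts (log axes) of Smad3, Il2ra, Fcgr2b, Ccr2, Ski and Nfkbiz in each library of the 6 diets; points are libraries, lines are medians, blue is chow, orange the Western diet and grey the custom diets of sucrose (suc) or starch (sta) with palmitate (palm) or oleate (ole). The Western diet medians of Smad3 (710), Ski and Nfkbiz are the highest of the 6 diets and those of Fcgr2b (969), Ccr2 and Il2ra the lowest.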

How the data were processed

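The authors deposited raw counts: per the file headers and values, whole numbers of barcodes per probe for 547 endogenous genes, 14 reference genes, 8 negative and 6 positive control probes in 48 libraries. RNA was extracted with the RNeasy Lipid Tissue Mini Kit, per the labels' protocols. The tool that made the counts is not given in the sources used here. The lowest value is 1, and whether zeros were set to 1 is not shown. Symbols are printed as in the table; 549 of 561 gene probes matched the RefSeq table (GRCm38.p6) by accession.

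One edgeR 4.0.16 quasi-likelihood model (glmQLFit, then glmQLFTest, under R 4.3.3) took all 48 libraries, with 1 coefficient for each diet and the geometric mean of the 14 reference genes as library size. Two-sided p-values were Benjamini-Hochberg adjusted over the 491 genes whose mean count reached 10, with a threshold of 0.05. On simulated data the fit called 62.3%, 86.7% and 98.4% of genes changed 1.5-fold, 2-fold and 4-fold between the Western diet and chow, and 0.687% of unchanged genes. The simulated counts had exact library sizes, rises and falls equally likely and no outlying library. These shares may therefore not hold for the measured libraries. Log2 differences are fitted values with SE. Relations used exact permutation tests. No 2 of the 15 libraries were copies (lowest chi-square per degree of freedom 9.76 over 105 pairs).

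Named genes are those with the 12 largest rises, 10 largest falls and 10 smallest p-values against chow, list members that passed and 27 genes given whatever their p; for the other comparisons, up to 8 per direction. The genes printed are a subset picked after their values were seen, and some genes that the rule selects are not reported here. Genes, lists and comparisons were chosen with earlier results of these data known. Alternatives were TMM, DESeq2 1.42.0, other filters, covariates, background subtraction, a replicate block, fewer groups in the fit and each library left out; leaving out 2 or 3 libraries that stood apart and using only the reference genes that did not pass were chosen after seeing the data. The p-values measure the spread between libraries, and their number limits the precision.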

Additional observations from a re-analysis of the deposited data

Results flagged for a closer look

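A library stood beyond Dixon's limit for its group in 43 of 224 checks of a named gene in a diet, on the log2 scale; chance gives about 1 in 20. Most of these are Western diet replicate 2. It was the lowest Western diet library for the macrophage and myeloid genes Itgax (1473 scaled counts, next 4536), Trem2 (492, next 1409), Lair1 (192, next 495), Cd14 (414, next 944), Cybb (1364, next 4212), Fcer1g (643, next 1855), Tyrobp (3603, next 11795), Slamf7 (155, next 411), Itga4 (192, next 655) and Cd83 (427, next 1341). The same held for the complement genes C1qa (2359, next 5716), C1ra (1335, next 2925) and C2 (657, next 766). It held for Tlr8 (259, next 807), Tlr4 (262, next 594), Tnfaip3 (209, next 376), Irak2 (486, next 778), Ifi204 (255, next 687) and Ifngr1 (2763, next 3575). It held for Il1rl1 (93.8, next 319), Fcer1a (29.9, next 54.4), Il1rl2 (111, next 199), Blnk (751, next 1442), Cd22 (45.5, next 132), Cd36 (18964, next 44055) and Il10 (5.69, next 9.91), the last at the level of the control probes. It was the highest Western diet library for Clu (173666, next 3378), Tcf7 (1140, next 73.4), Defb14 (222, next 11.5), Ptpn22 (1007, next 309) and Kit (122, next 84.1).

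Chow replicate 4 was the lowest chow library for Itgax (169, next 948), Cybb (880, next 1893), Ly86 (258, next 509), Fcgr1 (78.7, next 171), Fcgr4 (27.4, next 96.7) and Ccr2 (452, next 1030). It was the highest for Gata3 (197, next 43.6) and Defb1 (221, next 31.4). Chow replicate 7 was the lowest for Irak2 (889, next 1128) and the highest for Pax5 (28.9, next 12.5), chow replicate 8 the lowest for Clu (1647, next 2292), and Western diet replicate 6 the lowest for Stat3 (1871, next 2121).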

How the results depend on the processing

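The count of genes called against chow, 161 higher and 39 lower, moved with the scaling and with a covariate: 101 were higher and 70 lower with TMM, 97 and 67 with DESeq2, and 91 were higher with lymph node markers entered as a covariate. Without 1 library the higher genes numbered 127 to 185, without Western diet replicate 4 and 2, and the lower genes 31 to 40. Libraries with the same replicate number were no more alike than others (mean correlation -0.03 over 7 pairs, from -0.42 to 0.26, against 0.01 over 49 others). The labels do not say whether the numbers pair the libraries, and 7 pairs cannot settle it. With the replicate block 137 were higher and 36 lower. The block lost the calls on Clu, C4bp, Tcf7, Gata3, Defb1, Defb14 and Ncam1 among the genes named. Against sucrose/palmitate, 30 genes called, the replicate block gave 12, the fit of only the compared groups 16, and leaving out 1 library 15 to 58. Against the mean of the custom diets, 12 genes called, the replicate block gave 6, the positive control ratio as a covariate 6, DESeq2 30, and leaving out 1 Western diet library 9 to 35, the most without replicate 2.

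In 6 of the 200 called genes the sign changed in some alternative. These were Clu, Defb14, C4bp and Tcf7, and Frmpd4 and Lef1, which are named here after their values were seen; in each of the 6 Western diet replicate 2 was at least 4-fold above all other libraries. Clu was at -0.71 with DESeq2, which replaces outlying counts, at -0.49 without Western diet replicate 2, at -0.45 without that library and chow replicate 4, and at -0.44 without Western diet replicate 6 as well. Defb14 was at -0.33, -0.051, -0.014 and -0.078 in the same 4 settings. Over all single libraries left out, Clu lay between -0.49 and 3.59 and Defb14 between -0.051 and 2.12. C4bp was at -0.22 with DESeq2 and at -0.029 without the 2 libraries, and Tcf7 at -0.15 without the 3. The relation of Emr1 with Cfd on the Western diet was -0.27 with TMM, against 0.10. The cause was not tested beyond these settings. Of 112 genes followed through the alternatives, 97 were called and 64 kept their call under each one that tested them. Genes near the control probes, C9, Kir3dl1, Il6, Il10, Foxp3, Cd8a and Cd8b1 among them, are limited by depth.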
